A study of Arabidopsis thaliana with 20 samples.

Results

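In Arabidopsis thaliana seedlings, 7 loci for which the gene tables used here give the locus identifier and clone-based names at most were followed across 20 arrays: AT5G60720, AT3G52900, AT5G19870, AT1G24600, AT1G10800, AT1G63520 and AT5G61340. These 7 genes, of 13286 genes with a named probe set, were selected on a higher signal with dexamethasone (DEX) in the line that carries a fusion of VND7, on the same arrays as described here. Each is a protein-coding gene measured by 1 probe set (247590_at, 252025_at, 246138_at, 265024_at, 262759_at, 261546_at and 247522_at in the order above). They are a part of a larger class: of 53 named probe sets past the threshold upwards in that contrast, 48 had the locus identifier in the symbol field (90.6%, against 88.5% of all 13436 named probe sets), and all 7 were among them. Some of the 48, such as AT4G28650, have a name in the synonym field. The threshold was a limma Benjamini-Hochberg adjusted p under 0.05 over all 22746 probe sets. It was passed upwards by 0.453% of probe sets (103; 0.928% with the replicate number as a block), and nothing is read from the count of 7 in 7, since that contrast chose the loci. By the size of the log2 change the loci stood at places 13 (AT1G24600) to 75 (AT5G61340) among the 103.

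Whole seedlings aged 10 days came from 2 homozygous lines, each with a single insertion driven by the constitutive 35S promoter. The VND7 line expresses VND7-VP16-GR, in which VND7 is joined to VP16, a viral activation domain, and to GR, the steroid-binding part of the glucocorticoid receptor, and the empty-vector line expresses VP16-GR without VND7. All seedlings received cycloheximide (CHX), an inhibitor of protein synthesis, for 6 h, and the DEX-treated ones had DEX added for the last 4 h. The groups were thus DEX-treated VND7, CHX-only VND7, DEX-treated empty-vector and CHX-only empty-vector seedlings, with 5 arrays each. The treatment protocol gives 10 µM for both compounds, and other label fields give 10 mM. The labels do not say that replicates came from separate cultures, so the spread between arrays may be technical.

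VND7 is a NAC-domain transcription factor that switches on the differentiation of xylem vessel elements, the water-conducting cells that build a thickened secondary wall and then die and clear their contents. A protein fused to the glucocorticoid receptor domain stays in the cytoplasm until DEX lets it enter the nucleus. CHX is meant to block the translation of intermediate regulators, so the design asks which transcripts respond to the fusion without them. How far translation was blocked is not analysed here, and no group was without CHX. The empty-vector line measures the response to DEX without VND7. The fusion is expressed in all tissues under the 35S promoter and carries a viral activation domain, so it differs from VND7 as vessel cells express it. The level of VND7 itself is not analysed here. No function is assigned below to a locus that the tables do not annotate.

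Signals are MAS5 values, for which the median of all probe sets on an array lay between 159.7 and 186. Shoot and root transcripts were both present: RCA, the activase of Rubisco, had signals of 14967 to 26164 over the 20 arrays, LHCB4.1, a light-harvesting protein, 10597 to 18828, and PYK10 (AT3G09260), a root β-glucosidase, 1703 to 8944. The root-hair expansins EXPA7 (3 to 69.3) and EXPA18 (32.8 to 97.8) were dim. None of these 5 probe sets passed the threshold for DEX in either line. In whole seedlings a change in the number of cells that express a gene and a change in RNA per cell cannot be told apart.

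In DEX-treated VND7 seedlings all 7 loci had higher signals on all 5 arrays than on any of the other 15 arrays. This separation was shown by 0.642% of all probe sets (146), and it holds for these loci partly through their choice. The smallest gap was that of AT5G61340, whose lowest DEX-treated VND7 array was 1.11 times the highest other array. The widest was that of AT1G10800, at 3.27 times. In every other group 6 of the loci lay below the array median on all 5 arrays, AT5G61340 being the exception.

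**Figure D1:**
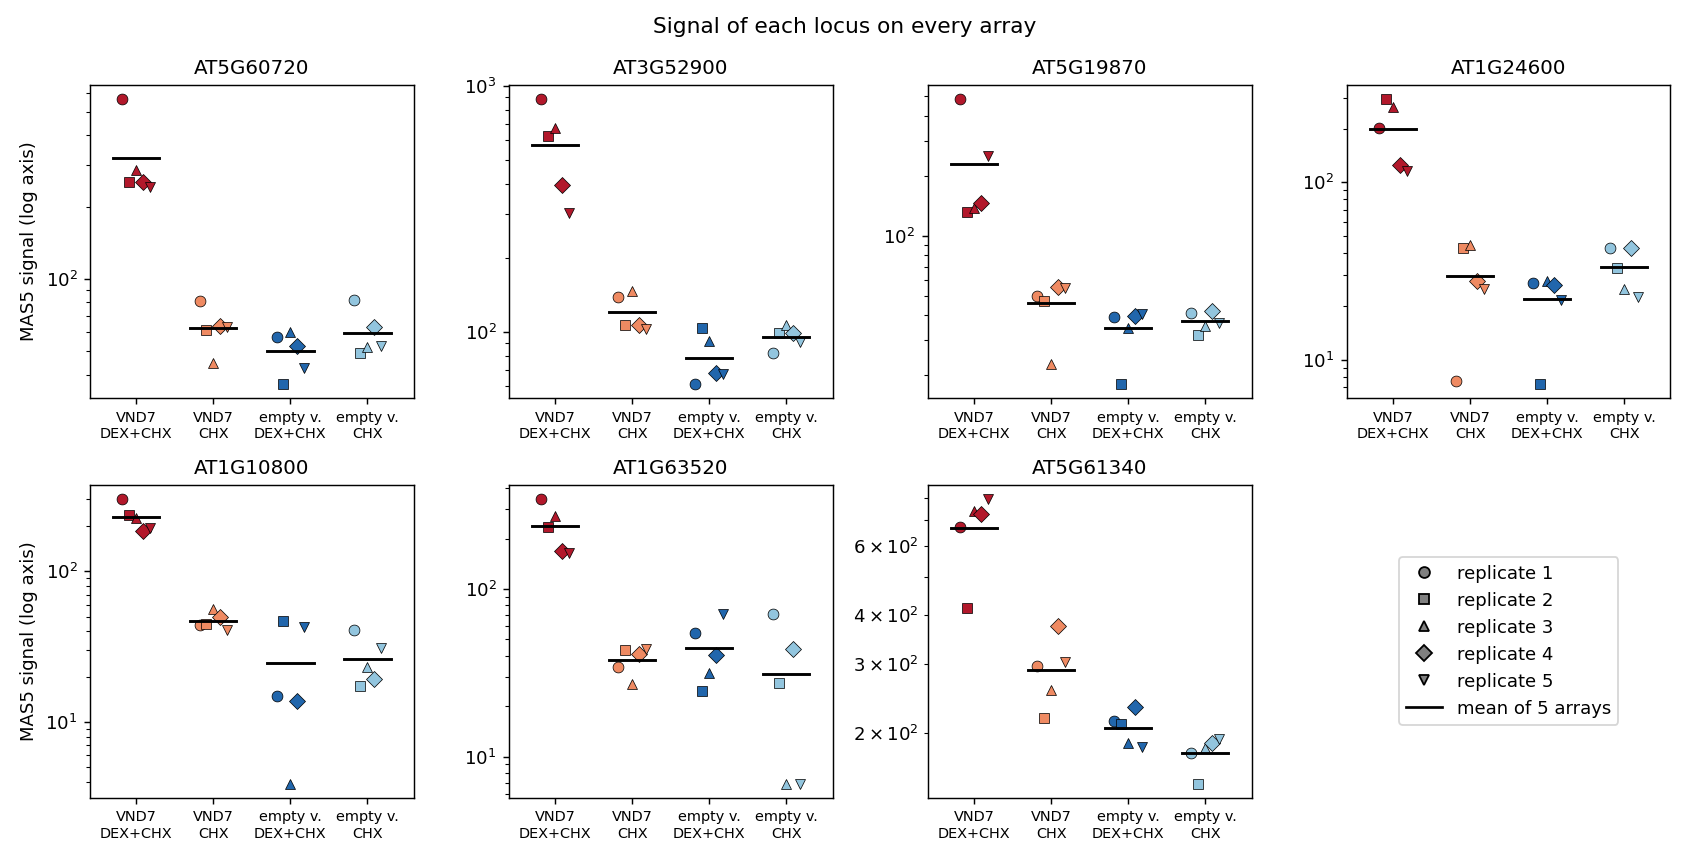
MAS5 signal (log axis, scaled to each panel) of the 7 loci on each of the 20 arrays, by group, with a marker shape for each replicate number and a bar at the mean of 5 arrays. The DEX-treated VND7 arrays lie above the other 15 in each panel, and for AT5G61340 the CHX-only VND7 arrays also lie above all CHX-only empty-vector arrays.

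AT5G60720 had signals of 564.1, 255.3, 285.4, 253.4 and 242.6 in DEX-treated VND7 seedlings (replicates 1 to 5), against 81.3, 61.1, 44.5, 63.7 and 63.4 in CHX-only VND7 seedlings. In the empty-vector line it had 57.6, 36.6, 60.4, 52.8 and 42.6 with DEX, against 81.6, 49.3, 52, 63.2 and 52.4 with CHX only. Replicate 1 stood far above the other DEX-treated VND7 arrays, and the remaining 3 groups overlapped. The group means were 320 ± 137 in DEX-treated VND7, 62.8 ± 13.1 in CHX-only VND7, 50 ± 10.1 in DEX-treated empty-vector and 59.7 ± 13.4 in CHX-only empty-vector seedlings (SD, n = 5). The log2 change with DEX was 2.27 ± 0.23 (SE) in the VND7 line, a 4.83-fold difference (95% interval 3.48 to 6.70).

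AT3G52900 had 882.5, 627.8, 672, 395.1 and 305.1 in DEX-treated VND7 seedlings, against 138.8, 106.7, 146.8, 107 and 102.6 in CHX-only VND7 seedlings. In empty-vector seedlings its signals were 61.5, 103.9, 91.8, 68.2 and 67.5 with DEX, against 81.7, 99, 106.5, 98.8 and 90.8 with CHX only. Replicates 1 to 3 were above replicates 4 and 5 in DEX-treated VND7 seedlings, and CHX-only VND7 arrays partly overlapped both empty-vector groups. Its mean was 577 ± 230 in DEX-treated and 120.4 ± 20.7 in CHX-only VND7 seedlings (SD, n = 5), with a log2 change of 2.15 ± 0.25 (4.45-fold, 95% interval 3.10 to 6.38).

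AT5G19870 had 484.4, 130.9, 138.5, 145.3 and 251 in DEX-treated VND7 seedlings, against 50, 47, 22.7, 55.4 and 55 in CHX-only VND7 seedlings. It had 39.3, 18.1, 34.5, 39.5 and 40.5 in DEX-treated empty-vector seedlings, against 41, 31.8, 35.4, 42 and 36.6 in CHX-only ones. Its spread in DEX-treated VND7 seedlings was wide, with a coefficient of variation of 65.4%, and 3 of the 5 arrays stayed below the array median even there. The log2 change with DEX in the VND7 line was 2.17 ± 0.32 (4.49-fold, 95% interval 2.82 to 7.15).

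AT1G24600 had the largest log2 change of the 7 loci with DEX in the VND7 line, 2.88 ± 0.46 (7.34-fold, 95% interval 3.78 to 14.3). Its signals were 201.4, 294.1, 266.5, 125.4 and 116.4 in DEX-treated VND7 seedlings, against 7.6, 42.6, 44.2, 27.8 and 25.1 in CHX-only VND7 seedlings. Empty-vector seedlings had 26.9, 7.3, 27.8, 26.4 and 21.7 with DEX, against 42.4, 32.9, 24.9, 42.6 and 22.6 with CHX only. The CHX-only VND7 array of replicate 1, at 7.6, gave that pair a 25.5-fold difference, where the other pairs lay between 4.67-fold and 6.72-fold. All 15 arrays outside the DEX-treated VND7 group were below the 30th percentile of their array, so the denominator of each of these ratios is dim. With a pseudocount at the 30th percentile of all signals the log2 change was 1.57, below those of AT3G52900 (1.77), AT1G63520 (1.63) and AT5G60720 (1.62). Without the CHX-only VND7 array of replicate 1 it was 2.44, below AT1G63520 at 2.56. With replicate 1 left out of every group it was 2.43, against 2.42 for AT1G63520. Its first place thus depended on the arrays kept and on the scale.

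AT1G10800 had 301.7, 235.1, 224.8, 185 and 192.2 in DEX-treated VND7 seedlings, against 44.1, 44.4, 56.5, 49.9 and 40.5 in CHX-only VND7 seedlings. Its empty-vector signals were 14.8, 46.9, 3.9, 13.8 and 42.8 with DEX, against 40.8, 17.2, 23.3, 19.4 and 31 with CHX only. The VND7 line was thus tight in both treatments (coefficients of variation 20.4% with DEX and 13.3% with CHX only), while the empty-vector arrays with DEX ran from 3.9 to 46.9 and overlapped those with CHX only. The log2 change in the VND7 line was 2.24 ± 0.47 (4.72-fold, 95% interval 2.39 to 9.32), and 1.46 with the pseudocount. From the VND7 line's own 10 arrays the SE was 0.20 in place of 0.47. In that setting the SE was also smaller for AT1G63520 (0.25 in place of 0.51). It was larger for each of the other loci, such as 0.36 in place of 0.32 for AT5G19870.

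AT1G63520 had 344.7, 235.9, 272.2, 167.4 and 164.6 in DEX-treated VND7 seedlings, against 34, 43.3, 27, 41.1 and 43.7 in CHX-only VND7 seedlings. It had 54.6, 24.5, 31.5, 40.6 and 71.2 in DEX-treated empty-vector seedlings, against 71.3, 27.3, 6.9, 43.8 and 6.9 in CHX-only ones. The CHX-only empty-vector arrays of replicates 3 and 5 were lower than all other arrays of this locus. The log2 change in the VND7 line was 2.59 ± 0.51 (6.02-fold, 95% interval 2.90 to 12.5), and 1.63 with the pseudocount.

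AT5G61340 differed from the other loci in its base level relative to its own induced level. It had 673, 418.2, 740.1, 724.4 and 793.8 in DEX-treated VND7 seedlings, against 297.3, 218, 257.6, 375.4 and 303.1 in CHX-only VND7 seedlings. Empty-vector seedlings had 214.5, 210.5, 188.6, 233.3 and 184.3 with DEX, against 177.4, 148.3, 182.6, 187.8 and 193.2 with CHX only. The log2 change with DEX in the VND7 line was the smallest of the 7, at 1.17 ± 0.15 (2.26-fold, 95% interval 1.82 to 2.80), and its SE was also the smallest.

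Across same-numbered pairs of arrays, every locus was higher with DEX in 5 of 5 pairs of the VND7 line, a sign that the choice of the loci favours. The size differed between pairs. The median log2 difference of the 7 loci was 2.74 in pair 1, 2.37 in pair 2, 2.49 in pair 3, 1.94 in pair 4 and 1.97 in pair 5. Pair 1 held the largest difference for 6 of the 7 loci, and AT5G61340, with its largest in pair 5, was the exception. AT5G61340 spanned 0.53 on the log2 scale over the 5 pairs, AT5G60720 0.77, AT1G10800 0.83 and AT1G24600 2.45. Without the 4 arrays of replicate 1, a setting chosen after seeing the data, the log2 changes of the loci were 1.19 ± 0.18 for AT5G61340 to 2.43 ± 0.45 for AT1G24600.

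**Figure D2:**
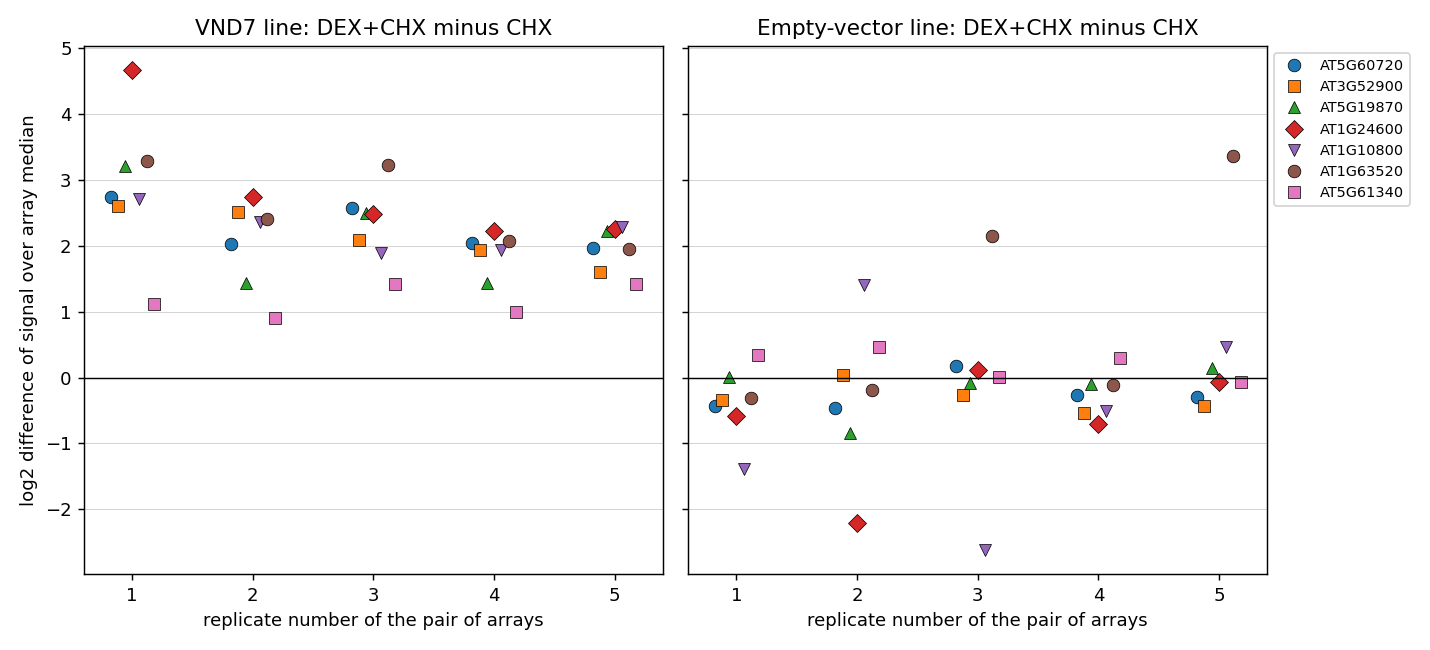
Log2 difference between DEX with CHX and CHX alone for each same-numbered pair of arrays (x axis), with the VND7 line on the left and the empty-vector line on the right and a marker for each locus. All 35 points of the VND7 line lie above 0, from 0.90 to 4.67, while those of the empty-vector line lie from -2.62 to 3.37 on both sides of 0.

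The empty-vector line gives the contrast of these loci that holds no array used to choose them. With DEX, 0 of the 7 loci passed the threshold in either direction (limma, adjusted p = 1 for each; 0 of 7 with unadjusted p under 0.05), where 0.281% of all probe sets passed upwards (64) and 0% downwards. With the replicate number as a block, 0 of 7 passed as well, where 0.659% passed upwards and 0.0528% downwards. The loci had a median log2 change of -0.26, with 2 of 7 above 0, beside a median of -0.01 and 48.6% above 0 over all 22746 probe sets. AT5G60720 had a log2 change of -0.26 ± 0.23 with a 95% interval of -0.73 to 0.22, and AT3G52900 had -0.31 ± 0.25 (-0.83 to 0.21). AT5G19870 had -0.17 ± 0.32 (-0.84 to 0.50). For these 3 loci the interval held no rise of more than 0.50 on the log2 scale. AT5G61340 had 0.21 ± 0.15 (-0.10 to 0.52) and was higher with DEX in 4 of 5 pairs.

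The other 3 loci were measured less closely in this line. AT1G24600 had a log2 change of -0.69 ± 0.46 (95% interval -1.65 to 0.27), and -0.34 without the DEX-treated array of replicate 2. AT1G10800 had -0.53 ± 0.47 (-1.51 to 0.45), with -0.90 without that array and 0.0093 without the DEX-treated array of replicate 3. AT1G63520 had the largest value, 0.98 ± 0.51 (-0.08 to 2.03), with an unadjusted p of 0.067 by limma. That value came from 2 pairs: the differences were 2.15 in pair 3 and 3.37 in pair 5, where the CHX-only signal was 6.9, and between -0.31 and -0.12 in the other pairs. It was 0.25 ± 0.19 with the pseudocount. Without single arrays it ran from 0.56 (without the CHX-only array of replicate 5) to 1.40 (without that of replicate 1). Its unadjusted p was under 0.05 in 3 of these 20 settings and without all arrays of replicate 1, with adjusted p of 0.72 or more. With the replicate number as a block its unadjusted p was 0.047 and its adjusted p 0.59, so that it did not pass there either. From the empty-vector arrays alone the SE was 0.64 for AT1G63520, 0.61 for AT1G10800 and 0.40 for AT1G24600. With an upper bound of 2.03 from the fit to all 20 arrays, a response of AT1G63520 to DEX without VND7 was not settled.

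The DEX response of the VND7 line minus that of the empty-vector line shares the arrays that chose the loci and is given as a description. It was 2.53 ± 0.32 on the log2 scale for AT5G60720, 2.46 ± 0.35 for AT3G52900, 2.34 ± 0.45 for AT5G19870 and 3.56 ± 0.65 for AT1G24600. It was 2.77 ± 0.67 for AT1G10800, 1.61 ± 0.71 for AT1G63520 and 0.96 ± 0.21 for AT5G61340. Taken by number over all 4 arrays, it was above 0 in 5 of 5 sets for 6 loci and in 4 of 5 for AT1G63520, whose replicate 5 gave -1.41.

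**Figure D3:**
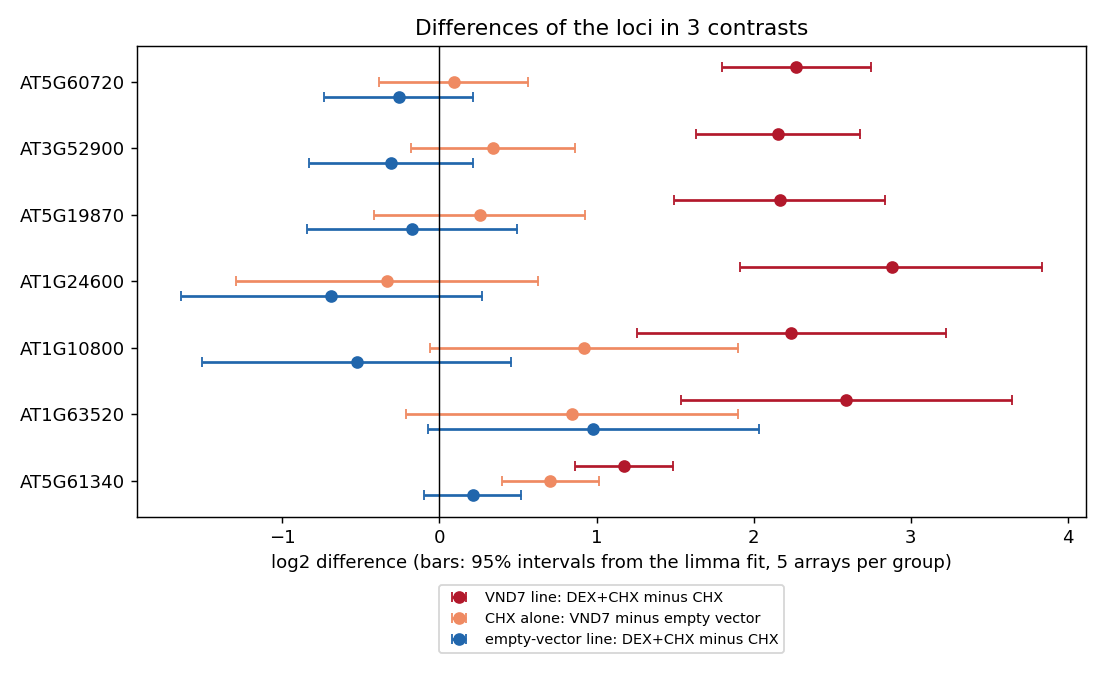
Log2 differences of the 7 loci (points) with 95% intervals from the limma fit (bars, 5 arrays per group) for DEX in the VND7 line, for the VND7 line minus the empty-vector line under CHX alone, and for DEX in the empty-vector line. The DEX differences of the VND7 line run from 1.17 to 2.88, and all 7 intervals of the empty-vector line hold 0.

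Without DEX the lines were compared to see how the loci stood in seedlings given CHX only. This contrast uses the CHX-only VND7 arrays that entered the choice, so no test is given. Activity of the fusion protein without DEX was not tested. AT5G61340 was higher in CHX-only VND7 seedlings, at 290 ± 58.6, than in CHX-only empty-vector seedlings, at 178 ± 17.5 (SD, n = 5), a log2 difference of 0.71 ± 0.15 (1.63-fold, 95% interval 1.32 to 2.02). Its 2 sets of 5 signals did not overlap. It was the only 1 of the 7 loci without overlap here, where 0.29% of all probe sets were separated in this direction. The log2 difference was 0.92 ± 0.47 for AT1G10800, 0.84 ± 0.51 for AT1G63520, 0.34 ± 0.25 for AT3G52900 and 0.26 ± 0.32 for AT5G19870, with overlapping signals. AT5G60720 was at 0.09 ± 0.23 and AT1G24600 at -0.33 ± 0.46. The AT1G24600 difference was 0.10 without the CHX-only VND7 array of replicate 1, and AT1G63520 ran from 0.43 to 1.27 without single arrays. With the pseudocount AT1G63520 was at 0.17 and AT1G10800 at 0.35. AT3G52900 and AT1G10800 were higher in the VND7 line in 5 of 5 pairs, although their signals overlapped. The share of all probe sets with 5 of 5 pairs was not computed, so nothing is read from the pair counts between lines. Of the root genes, PYK10 was lower in the VND7 line in 5 of 5 pairs, with CHX only (3734 ± 2053, against 5045 ± 2360 in empty-vector seedlings; log2 difference -0.47 ± 0.39) and with DEX (-0.44 ± 0.39). EXPA7 was at -0.45 ± 0.58 and EXPA18 at 0.28 ± 0.28 with CHX only. With DEX in both lines EXPA7 was at 0.57 ± 0.58 and EXPA18 at 0.38 ± 0.28, opposite in sign to PYK10. The part of tissue makeup in the line differences was not tested.

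With DEX in both lines, all 7 loci were higher in VND7 than in empty-vector seedlings with no overlap, a separation shown upwards by 1.31% of all probe sets. The DEX-treated VND7 arrays chose the loci, so nothing is read from that count. The log2 differences were 3.69 ± 0.47 for AT1G10800, 3.23 ± 0.46 for AT1G24600, 2.80 ± 0.25 for AT3G52900, 2.62 ± 0.23 for AT5G60720, 2.60 ± 0.32 for AT5G19870, 2.46 ± 0.51 for AT1G63520 and 1.67 ± 0.15 for AT5G61340. With the pseudocount they were 1.88 for AT1G10800, 1.71 for AT1G24600 and 2.18 for AT3G52900, which then had the largest. In the order of the 4 groups, those below DEX-treated VND7 seedlings overlapped their neighbours for all 7 loci. For AT5G61340 CHX-only VND7 seedlings overlapped DEX-treated empty-vector seedlings (218 as the lowest against 233.3 as the highest) and not CHX-only ones.

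The 7 loci were compared with one another to see whether arrays that were high for one were high for the rest. Over the 20 arrays Pearson's r between the log2 signals of 2 loci was 0.69 to 0.96 in the 21 pairs of loci, with a median of 0.83. That r contains the group difference by which the loci were chosen. After each group mean was removed, r was -0.42 to 0.715 with a median of 0.00, and 11 of the 21 were above 0. The highest was that of AT5G60720 with AT5G19870 (0.715), which share the high DEX-treated VND7 array of replicate 1 and the low CHX-only VND7 array of replicate 3. The lowest was that of AT1G24600 with AT5G61340. These values describe 20 arrays of 4 groups with 1 kind of scaling and carry no test.

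**Figure D4:**
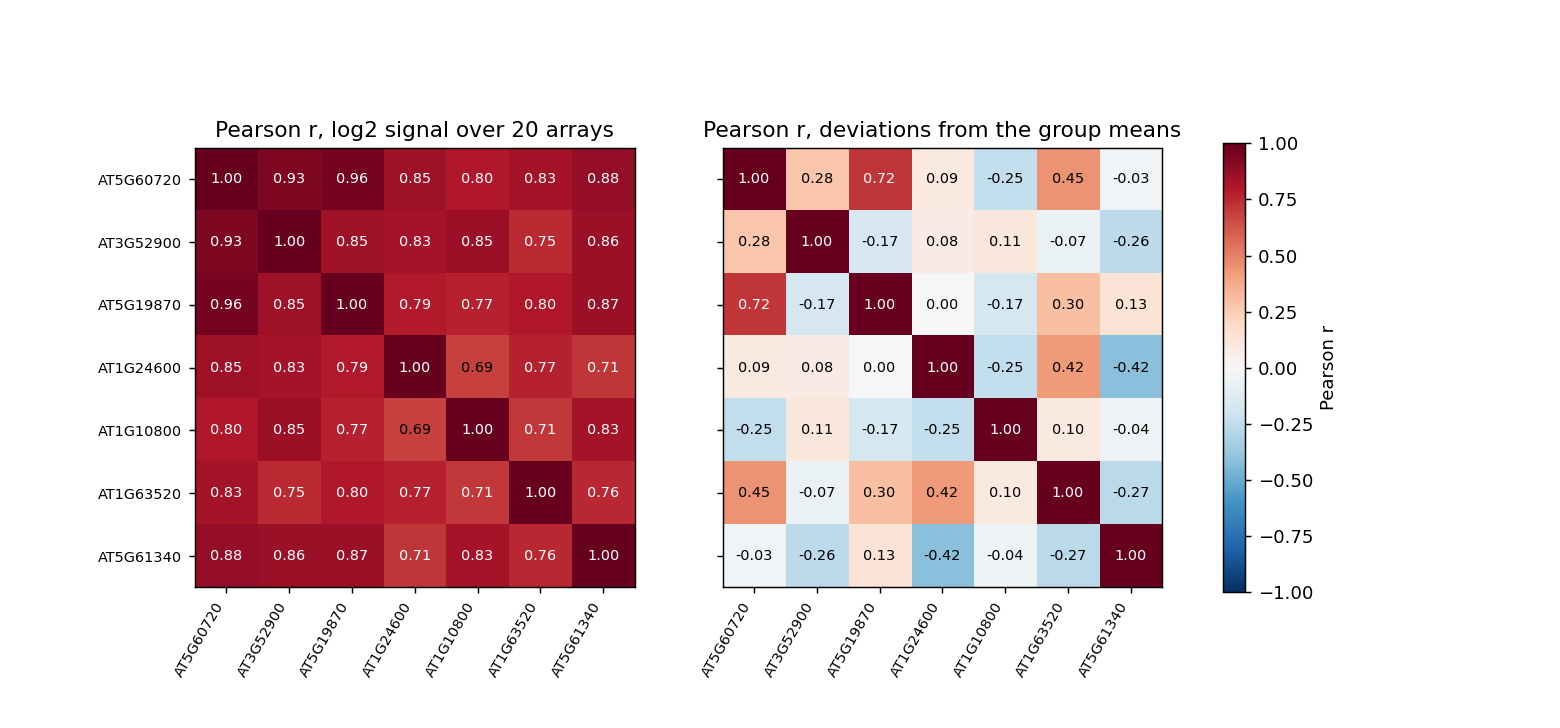
Pearson's r between the 7 loci over 20 arrays, for log2 signals on the left and for deviations from the group means on the right (colour scale from -1 to 1). The values on the left are 0.69 to 0.96, and those on the right run from -0.42 to 0.715.

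For each locus the 3 named probe sets with the most similar profile were taken, by Pearson's r of log2 signal over the 20 arrays. The 8660 candidates were named probe sets whose mean signal over all 20 arrays was at or above the 30th percentile of such means. DEX-treated VND7 arrays enter that mean, so a candidate could be dim elsewhere. AT4G18450 had means of 201 in DEX-treated VND7, 28.8 in CHX-only VND7, 21.6 in DEX-treated empty-vector and 18.6 in CHX-only empty-vector seedlings. AT5G60720 was closest to AT4G28650, which the tables also list as PXL2 (PXY-like2), with r = 0.965 overall and 0.81 for deviations from the group means. The r of deviations comes from the same 20 arrays by which PXL2 was picked. That choice favours a high value, so nothing further is read from it. PXL2 had signals of 575 ± 246 in DEX-treated VND7 seedlings, against 134 ± 39.3 in CHX-only ones, and 103 ± 34.8 with DEX against 103 ± 45.8 with CHX only in the empty-vector line (SD, n = 5). AT5G60720 was next closest to AT5G49900 (0.961) and AT5G19870 (0.958). AT5G19870 had AT4G14990 (0.966), AT5G49900 (0.960) and AT5G60720. AT4G14990 shows that r takes no account of size: its log2 change with DEX in the VND7 line was 0.35, against 2.17 for AT5G19870.

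AT3G52900 was closest to AT5G38610 (r = 0.974), AT2G17710 (0.973) and AT4G04460 (0.949). AT1G24600 was closest to AT5G48500 (0.891), SBTI1.1 (0.876), a member of the subtilase family of serine proteases, and AT5G38610 (0.875). SBTI1.1 had 374 ± 112 in DEX-treated VND7 seedlings, against 108 ± 33.3 in CHX-only VND7 seedlings (SD, n = 5). AT1G63520 was closest to AT4G18450 (0.91), AT5G05790 (0.885) and AT4G14990 (0.853). AT1G10800 was closest to AT5G40020 (0.947), AT1G23460 (0.914) and AT1G70500 (0.904).

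AT5G61340 was closest to AT1G23460 (0.941), AT5G45020 (0.938) and AT5G66390 (0.925), which is PRX72, a class III peroxidase. PRX72 shared with AT5G61340 a moderate difference on a base that was not dim: 1589 ± 323 in DEX-treated VND7 seedlings, against 690 ± 190 in CHX-only ones, and 516 ± 103 with DEX against 513 ± 105 with CHX only in the empty-vector line (SD, n = 5). For AT1G23460 the r of deviations with AT5G61340 was 0.04, so the likeness lay in the group means. Of the 15 different genes named here that are not among the 7, 14 passed the threshold upwards with DEX in the VND7 line (limma), AT4G14990 being the exception, a count to which the choice by likeness leads.

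A list of 40 genes of xylem vessel formation was examined beside the loci, of which 5 had a named probe set. PRX72 was the 1 of 5 that passed the threshold upwards with DEX in the VND7 line (log2 change 1.20 ± 0.18, limma adjusted p = 0.0007272). By limma 2 of 5 had an unadjusted p under 0.05, and 0 passed downwards, beside the 0.453% of all probe sets that passed upwards. The 5 log2 changes ran from 0.14 to 1.20. The median of the 5 was 0.41, beside -0.02 over all probe sets and 2.24 over the 7 loci. The loci were chosen for their rise in this contrast, so nothing is read from the gap to their median. IRX10, a xylan synthase, was at 0.41 ± 0.16 (adjusted p = 0.96). IRX15, which acts in xylan formation, was at 0.89 ± 0.74, the zinc-finger gene C3H14 at 0.18 ± 0.28 and KINESIN-13A at 0.14 ± 0.11 (adjusted p = 1 each). In the empty-vector line 0 of the 5 passed (limma; 0 with unadjusted p under 0.05), beside 0.281% of all probe sets upwards, with a median of 0.03. The other 35 genes of the list are not analysed here.

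Genes next to the loci on the chromosome were looked up in the gene order of the TAIR10.1 annotation. Of 14 nearest protein-coding neighbours 7 had a named probe set, and 0 of these passed the threshold with DEX in the VND7 line (limma; 1 with unadjusted p under 0.05), beside 0.453% of all probe sets upwards. The exception in size was AT1G10810, the next gene after AT1G10800. It had 91.8, 72.2, 60.4, 66.1 and 12.8 in DEX-treated VND7 seedlings, against 5.4, 22.6, 5.1, 24.7 and 6.5 in CHX-only VND7 seedlings. In the empty-vector line it had 5, 19.3, 7.8, 6.8 and 2.9 with DEX, against 4.6, 21.9, 2.9, 14 and 8.8 with CHX only. It was higher with DEX in 5 of 5 pairs of the VND7 line, with a log2 change of 2.32 ± 0.68 (adjusted p = 0.31), from signals near the floor of the scale and with its replicate 5 array overlapping CHX-only arrays. Between the lines with DEX it did pass, at 2.89 ± 0.68 in VND7 over empty-vector seedlings (limma adjusted p = 0.032), as did 0.862% of all probe sets upwards. That contrast shares the DEX-treated VND7 arrays on which AT1G10810 was singled out, so nothing is read from the pass. The DEX response of the VND7 line minus that of the empty-vector line did not pass, at 2.58 ± 0.96 (limma adjusted p = 0.82). Between the lines with DEX the other 6 neighbours did not pass. The other 6 neighbours had log2 changes with DEX in the VND7 line of -0.19 to 0.19.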

How the data were processed

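Biotin-labelled cRNA from 10 µg of total RNA was hybridised to 1-colour Affymetrix arrays. Per the submitters' processing notes, MAS5 (version not given) produced the signals. The authors deposited values on a natural log scale: each column had a median of 0, and after exponentiation 100% of the values checked (13796 to 14327 per array, tolerance 0.02 of a step) were whole multiples of 1 step, read as the 0.1 to which MAS5 rounds signals. The deposited values are thus natural logs of signal over the array median. The signals printed were recovered in this way. Log2 changes were computed from signal over array median, so they differ slightly from ratios of the printed signals. Detection calls were not used here. With 5 arrays per group, precision is limited by their number.

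Of 22746 probe sets, 13436 (59.1%) matched 1 gene in the array's gene table and RefSeq (TAIR10.1, used for names and gene order). No source used here names the probe sets' genome build, so no coordinates are printed. Differences were fitted with limma 3.58.1 in R 4.3.3 (lmFit; eBayes with a trended prior variance), with a mean per group fitted over all 20 arrays and Benjamini-Hochberg adjustment over all probe sets. The fit was tested on simulated data with independent noise, which did not cover deviations shared by same-numbered arrays. The design set no pseudocount for a log table. The loci, lists and tests were chosen with earlier results of these data known. Named genes were the 7 loci, the 3 most similar profiles of each, and the measured genes of the fixed lists. Neighbours were added after the data were seen. Protein relatives and promoter motifs, which the design also named, were not analysed here.

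Replicate numbers come from the labels and were read as pairing arrays. Once group means were removed, all 30 pairs of arrays that shared a number across groups correlated positively (r = 0.573 to 0.836 over 11373 probe sets). Numbers 2 and 3 (median r = 0.66) and 4 and 5 (0.717) also deviated together. No label names a batch, and each number holds all 4 groups, so values are given per pair. Unless another setting is named, the SEs and intervals come from the fit without the replicate block, which leaves this pairing out. With the block the SE was smaller for each locus, such as 0.19 in place of 0.25 for AT3G52900. Alternatives were the replicate block, quantile normalization, a pseudocount, a filter on dim probe sets, no variance trend, 1 line alone and leaving out arrays.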

Additional observations from a re-analysis of the deposited data

Results flagged for a closer look

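In 3 of the 28 sets of 5 signals (7 loci in 4 groups) a single array stood apart from the rest by Dixon's ratio of gap to range, which chance alone does in about 1 set in 20. The ratio was taken on signals and not on log2 values, on which low arrays weigh more. The DEX-treated VND7 array of replicate 1 had 564.1 for AT5G60720, where the other 4 arrays lay between 242.6 and 285.4. The CHX-only VND7 array of replicate 3 had 22.7 for AT5G19870, where the others lay between 47 and 55.4. The DEX-treated empty-vector array of replicate 2 had 18.1 for AT5G19870, where the others lay between 34.5 and 40.5. For AT1G24600 that array had 7.3, where the others lay between 21.7 and 27.8, and it was not flagged on signals.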

How the results depend on the processing

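The count of loci past the threshold in the empty-vector line was 0 under every alternative run, leaving out single arrays included (limma; lowest adjusted p 0.5857, for AT1G63520 with the replicate number as a block). Leaving out the dimmest 40% of probe sets kept 3 of the 7 loci, so 4 have no value there. The block changed no call of a locus in the empty-vector line and of the vessel list, where 1 gene passed under every alternative run. It raised the probe sets past the threshold with DEX to 236 in the VND7 line (211 up, 25 down; 103 without it) and 162 in the empty-vector line (150 up, 12 down; 64 without it). Without single arrays these counts were 64 to 108 and 52 to 68. For the VND7 line the count was 64 without the DEX-treated array of replicate 1 and 67 without that of replicate 3. The log2 changes of 2 loci in the empty-vector line, -0.17 for AT5G19870 and -0.53 for AT1G10800, changed sign without a single array: AT5G19870 ranged from -0.24 to 0.027, with the highest value without the DEX-treated array of replicate 2, and AT1G10800 from -0.90 to 0.0093, with the highest without that of replicate 3. The pseudocount at the 30th percentile made the log2 changes with DEX in the VND7 line smaller, at 1.62 for AT5G60720, 1.77 for AT3G52900, 1.39 for AT5G19870 and 1.04 for AT5G61340. Signals below the 30th percentile of the array outside DEX-treated VND7 seedlings limit the ratios of 5 loci; AT3G52900 and AT5G61340 had none there. Protein relatives, planned as a further result, were not run.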
